A study of Mus musculus with 16 samples.

Results

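The 5' fragments of tRNA-Lys-CTT and tRNA-Lys-TTT, the mouse cytosolic lysine tRNAs, were followed through 8 small RNA libraries of mature sperm. A read was counted when it was 18 to 44 nt long, started at base 1, 2 or 3 of either tRNA and matched it with at most 1 substitution. These were 2 of the 14 anticodon families whose 5' fragments could be read in the libraries, and they held 217058 of 103084122 reads, or 0.211%, in 2310 distinct sequences. Sperm came from the cauda epididymis of Dnmt2-/- males on a high-fat diet (HFD, D12492), Dnmt2+/+ males on HFD, Dnmt2-/- males on a normal diet (ND, Diet 1415) and Dnmt2+/+ males on ND, with 2 libraries per group. Dnmt2 (Trdmt1) encodes a methyltransferase of tRNA cytosines, and the series title asks about its part in the passing on of paternally acquired metabolic disorders through sperm RNA. All mice were on the C57BL/6NCrl background. The Dnmt2-/- mice carried the allele Dnmt2tm1Bes, imported as B6;129-Dnmt2tm1Bes/J and backcrossed for more than 5 generations, and the C57BL/6NCrl males were 6 weeks old when bought. The labels name no Cre or tissue limit for the deletion and do not say whether animals were pooled or whether replicates were separate animals, and p-values then speak of library spread only, which may be technical. Small RNA reads do not measure Dnmt2 mRNA, so the knockout itself was not checked here.

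Transfer RNAs for lysine read the codons AAG (anticodon CTT, CUU in RNA) and AAA (anticodon TTT, UUU in RNA). Ribonucleases such as angiogenin cut mature tRNAs in the anticodon loop and release a 5' fragment, and such fragments are among the abundant small RNAs of mammalian sperm. DNMT2 methylates the cytosine at base 38 of its substrate tRNAs, which are those for aspartate, glycine and valine. The lysine tRNA read here as CTT has an adenine at that base.

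The reads gave 3 lysine sequences, shown because their differences decide which fragment belongs to which tRNA. They are written 5' to 3' as read from base 1, with capitals at the bases where any of them differ (7, 28, 29, 34 and 41).
tRNA-Lys-CTT, A29 copy: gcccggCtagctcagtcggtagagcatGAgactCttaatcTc
tRNA-Lys-CTT, G29 copy: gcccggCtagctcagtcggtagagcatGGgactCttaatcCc
tRNA-Lys-TTT: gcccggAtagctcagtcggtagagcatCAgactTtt
The G29 copy differed from the A29 copy by A29G and T41C, positions that face each other in the anticodon stem. Among reads that ran from base 1 to base 41, 191 had A at base 29 with T at base 41 and 176 had G with C. The mixed forms A with C and G with T had 23 and 20 reads. Lys-TTT differed from the A29 copy by C7A, G28C and C34T over the 36 bases that its reads covered. RefSeq lists 24 mouse genes for tRNA-Lys-CTT (n-TKctt) on 12 chromosomes and 2 for tRNA-Lys-TTT in GRCm38.p6. The Lys-TTT genes are n-TKttt22 (chr13:21971788-21971860) and n-TKttt23 (chr13:21907940-21908012). A fragment is shared by all genes of the same 5' sequence, so no fragment was placed at a gene. A read under 28 nt shows base 7 as the only difference between the 2 tRNAs and does not show the anticodon.

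The fragments behind most of the signal were the following, with capitals at base 29 and at the last base.
Lys-CTT A29, ending at base 33: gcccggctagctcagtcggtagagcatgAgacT
Lys-CTT A29, ending at base 32: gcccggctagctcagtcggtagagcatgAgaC
Lys-CTT A29, ending at base 34: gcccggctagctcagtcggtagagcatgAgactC
Lys-CTT G29, ending at base 34: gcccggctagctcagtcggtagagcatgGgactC
Lys-TTT, ending at base 33: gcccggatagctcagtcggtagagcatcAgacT
Lys-TTT, ending at base 24, before base 29: gcccggatagctcagtcggtagaG
Over the 8 libraries these exact sequences averaged 493.2, 254.0, 222.1, 152.1, 80.94 and 58.93 counts per 1000000 reads (CPM) in that order. The other members of the 5 most abundant of each tRNA were the A29 31-mer (85.9 CPM) and the Lys-TTT 25-mer, 26-mer and 32-mer (30.34, 15.59 and 12.89 CPM).

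Depth ranged from 10165031 to 19030258 reads, and the libraries fell into 3 sets by their sequencing errors, which did not coincide with the groups. In error set A (both Dnmt2-/- ND libraries and Dnmt2+/+ ND replicate 1), G was read as T at read base 29 at median rates of 455 to 667 per 10000, against 2.73 to 3.98 in the other 5 libraries. In error set B (Dnmt2-/- HFD replicate 1 and both Dnmt2+/+ HFD libraries), C was read as G at base 26 at 9.59 to 10.4 per 10000, against 0 to 1.21 elsewhere. Error set C held the remaining libraries, Dnmt2-/- HFD replicate 2 and Dnmt2+/+ ND replicate 2, in which neither rate was raised. They are thus joined by the lack of these errors, not by an error of their own. Set A held only ND libraries and set B only HFD libraries, so in those sets diet and error set cannot be told apart.

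Lys-CTT fragments were the more abundant of the 2 lysine families in every library. Their level in replicates 1 and 2 was 3063 and 1111 CPM in Dnmt2-/- HFD sperm, 2766 and 2209 CPM in Dnmt2+/+ HFD sperm, 1849 and 695.5 CPM in Dnmt2-/- ND sperm and 701.4 and 3078 CPM in Dnmt2+/+ ND sperm. The highest and the second lowest level thus belonged to the 2 replicates of 1 group, and all 4 groups overlapped except Dnmt2+/+ HFD and Dnmt2-/- ND. Lys-TTT fragments stood at 441.1 and 212.4 CPM in Dnmt2-/- HFD sperm, 549.5 and 447.3 CPM in Dnmt2+/+ HFD sperm, 119.5 and 68.67 CPM in Dnmt2-/- ND sperm and 46.72 and 729.1 CPM in Dnmt2+/+ ND sperm. Their highest library exceeded their lowest 15.6-fold, whereas for Lys-CTT that ratio was 4.43, with 4.40 for its A29 copy and 14.5 for its G29 copy, described next. The number of Lys-CTT reads per Lys-TTT read was 10.1 to 15.5 in the 3 libraries of set A and 4.22 to 6.94 in the other 5. Put as a share, Lys-TTT made up 12.6% and 16.1% of lysine fragments in Dnmt2-/- HFD sperm, 16.6% and 16.8% in Dnmt2+/+ HFD, 6.07% and 8.99% in Dnmt2-/- ND, and 6.25% and 19.2% in Dnmt2+/+ ND.

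The 2 Lys-CTT copies varied differently from library to library. The A29 copy carried most reads, at 2678 and 928.5 CPM in Dnmt2-/- HFD sperm, 2222 and 1506 CPM in Dnmt2+/+ HFD sperm, 1599 and 608.6 CPM in Dnmt2-/- ND sperm and 638.4 and 2592 CPM in Dnmt2+/+ ND sperm. The G29 copy stood at 275.8 and 158.3 CPM in Dnmt2-/- HFD sperm, 500.8 and 668.1 CPM in Dnmt2+/+ HFD sperm, 211.7 and 65.85 CPM in Dnmt2-/- ND sperm and 46.03 and 424.3 CPM in Dnmt2+/+ ND sperm. Of the fragments that showed base 29 as A or G, the G29 copy made up 9.34% and 14.6% in Dnmt2-/- HFD, 18.4% and 30.7% in Dnmt2+/+ HFD, 11.7% and 9.76% in Dnmt2-/- ND, and 6.73% and 14.1% in Dnmt2+/+ ND. The highest share, 30.7%, and a share of 9.34% both came from set B, so this share varied within that set. Where G was misread as T at base 29, as in set A, a read was lost from the G29 copy and not from the A29 copy. An A misread as G at base 29 would in turn count as the G29 copy. The rate of that change at base 29 was not measured. Base 31, also an A, was substituted in 0.420% to 0.730% of Lys-CTT reads that ran beyond it, mostly as A31G.

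**Figure D1:**
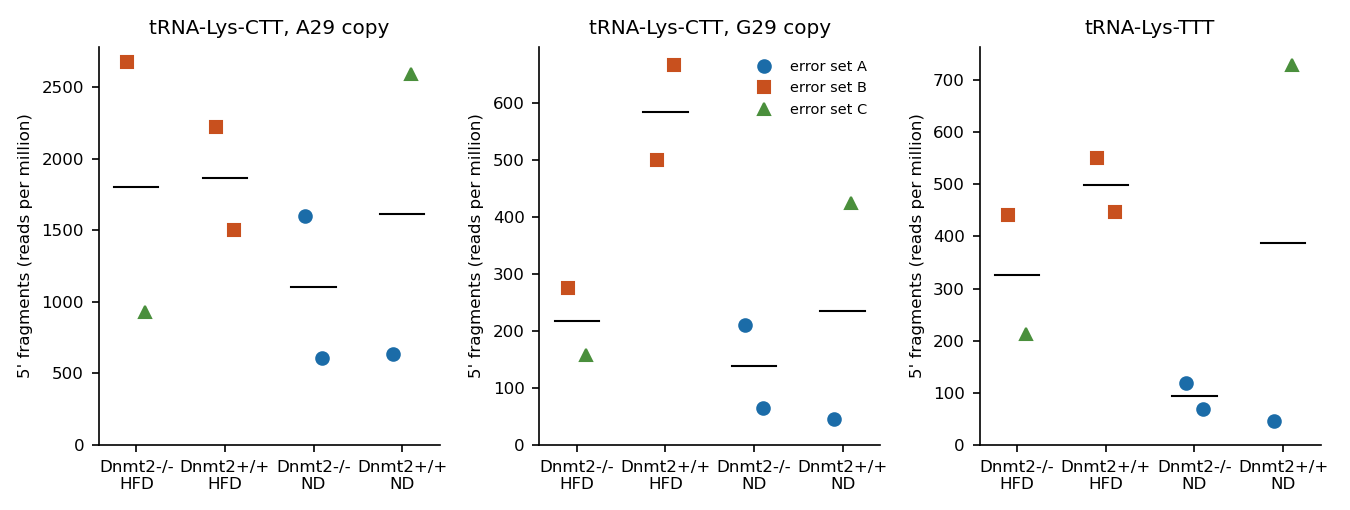
Level of the A29 and G29 copies of tRNA-Lys-CTT and of tRNA-Lys-TTT 5' fragments in CPM (vertical axes, each from 0) in 4 groups, with a point per library, shaped by error set, and a line at the mean of the 2 libraries. The 2 Dnmt2+/+ ND libraries lie at opposite ends for Lys-TTT (729.1 and 46.72 CPM).

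The 2 Lys-CTT copies ended at different bases in all 8 libraries. Fragments of the A29 copy most often ended at base 33, the base before the anticodon, with 34.5% and 43% of them in Dnmt2-/- HFD sperm, 47.5% and 32.1% in Dnmt2+/+ HFD, 62.4% and 64.1% in Dnmt2-/- ND, and 75.4% and 32.3% in Dnmt2+/+ ND. Ends at base 32 (20.8% ± 6.04), base 34 (16.9% ± 7.28) and base 31 (7.08% ± 3.65) followed (mean ± SD over 8 libraries). Fragments of the G29 copy ended at base 34, the first base of the anticodon, in 64.5% and 60.4% of cases in Dnmt2-/- HFD sperm, 73.9% and 73.6% in Dnmt2+/+ HFD, 62.5% and 62.9% in Dnmt2-/- ND, and 54.5% and 68.7% in Dnmt2+/+ ND. Another 18.9% ± 4.34 of them ended at base 35, and only 2.003% to 9.02% at base 33. The number of fragments ending at base 34 per fragment ending at base 33 was 6.04 to 36.7 for the G29 copy and 0.0750 to 0.805 for the A29 copy, with no overlap across the 8 libraries. Bases 30 to 38 are the same in both copies, and the fragments compared differ at base 29 alone. This difference was found while the ends were being described and was not among the planned comparisons, so it carries no test.

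The end profile of the A29 copy also differed between error sets. Base 33 took 62.4% to 75.4% of its ends in set A and 32.1% to 47.5% in sets B and C, while base 34 took 5.66% to 11.9% in set A and 15.7% to 25.8% elsewhere. Set A held 3 of the 4 ND libraries. The fourth, Dnmt2+/+ ND replicate 2, had 32.3% at base 33 and 23.2% at base 34, within the range of the HFD libraries. In Dnmt2-/- HFD replicate 1, 15.1% of A29 fragments ended at base 31, the last base of the anticodon stem, the highest share of any library.

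Lys-TTT fragments fell into 2 length classes. One class ended at base 33, like the A29 copy of Lys-CTT, with 30.7% and 30.6% of Lys-TTT fragments in Dnmt2-/- HFD sperm, 46.0% and 37.1% in Dnmt2+/+ HFD, 57.8% and 29.9% in Dnmt2-/- ND, and 35.9% and 25.5% in Dnmt2+/+ ND. The other class ended at bases 24 to 26, at the 3' side of the D stem, with 48.0% and 49.1% in Dnmt2-/- HFD sperm, 36.53% and 41.8% in Dnmt2+/+ HFD, 21.7% and 51.1% in Dnmt2-/- ND, and 39.4% and 44.6% in Dnmt2+/+ ND. Base 24 alone took 21.9% ± 5.44, base 25 took 14.4% ± 3.95 and base 26 took 5.19% ± 1.77 (mean ± SD over 8 libraries), and base 32 took 6.10% ± 1.89.

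Short fragments were far rarer for Lys-CTT. Reads under 28 nt made up 26.2% to 59.2% of Lys-TTT fragments and 0.669% to 1.98% of Lys-CTT fragments, with no overlap. In absolute terms, fragments ending at bases 24 to 26 numbered 18.4 to 325 CPM for Lys-TTT and 5.01 to 18.4 CPM for Lys-CTT, although Lys-CTT fragments were more abundant in all. Among the other tRNAs examined, reads under 28 nt made up 1.32% to 3.37% of 5' fragments of glycine tRNAs, 0.434% to 2.47% for glutamate, 13.3% to 34.3% for valine, 2.85% to 13.6% for histidine and 0.525% to 4.58% for aspartate. In 7 of the 8 libraries the Lys-TTT share therefore lay above the highest share of any of these tRNAs in any library. The exception was Dnmt2-/- ND replicate 1, at 26.2%. Since the short reads do not reach the anticodon, their assignment to Lys-TTT rests on base 7.

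Few Lys-TTT fragments reached the anticodon. Those ending at base 34 or later made up 2.99% to 7.94% of Lys-TTT fragments, 6.92% to 33.2% of the A29 copy and 88.0% to 96.7% of the G29 copy of Lys-CTT. The copies are known only from reads that show base 29, whereas the Lys-TTT share also counts short fragments, which lowers it beside theirs. For all Lys-CTT fragments, short ones included, the share was 12.5% to 51.9%. Lys-TTT fragments ending at base 34 numbered 0.0350 to 0.232 per fragment ending at base 33. That range overlaps the 0.0750 to 0.805 of the A29 copy. The Lys-TTT sequence was known to base 36 only. In all libraries together, 3 reads matched a whole lysine sequence exactly from base 1 and ran past its end. Longer reads with a later start or a substitution were not counted.

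**Figure D2:**
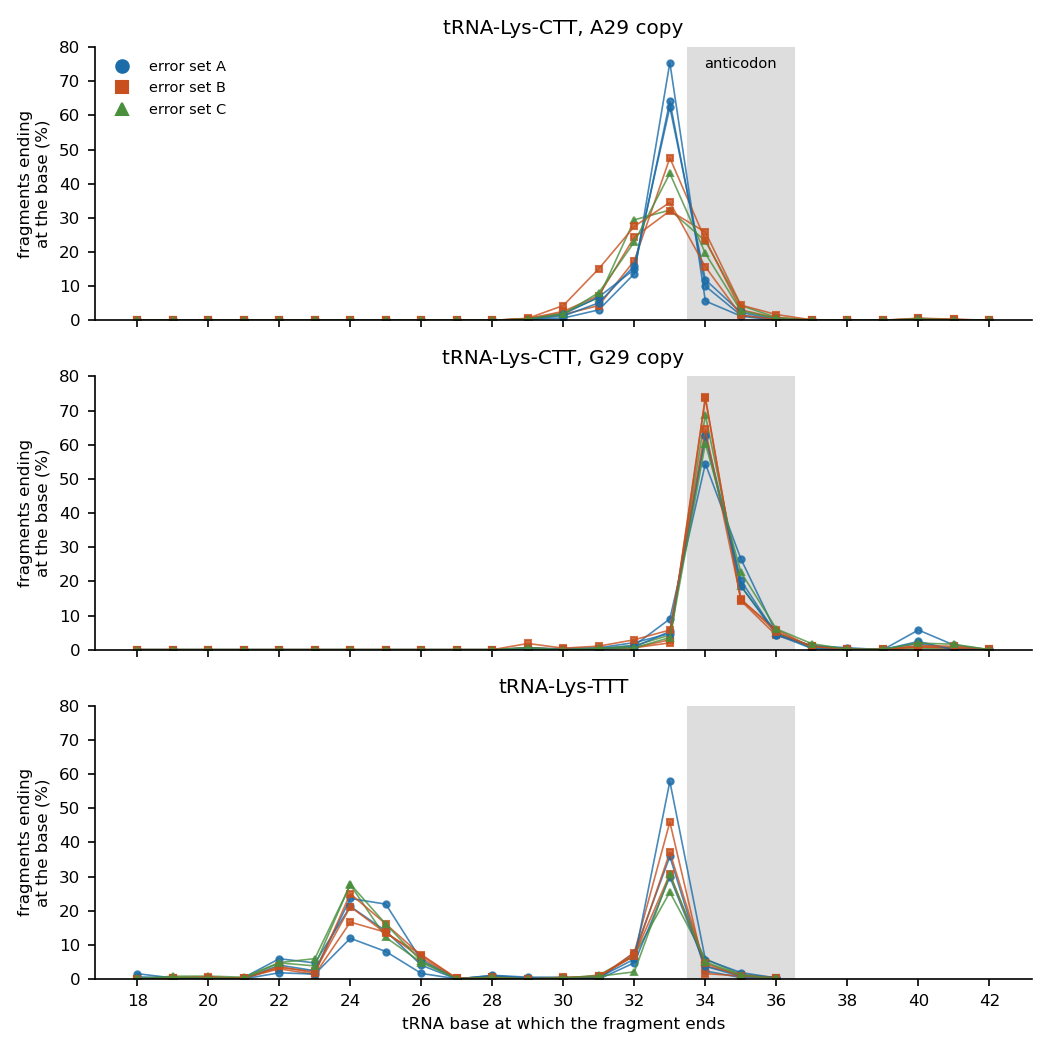
Share of fragments (vertical axes, percent) by the tRNA base at which they end (horizontal axis) for the A29 and G29 copies of tRNA-Lys-CTT and for tRNA-Lys-TTT, with a line per library, coloured by error set, and grey over the anticodon bases 34 to 36; Lys-TTT was read to base 36 only. The A29 copy peaks at base 33, the G29 copy at base 34, and Lys-TTT at bases 24 and 33.

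Most fragments began at the first base of the tRNA. For Lys-CTT the share that started at base 1 was 84.4% to 96.2%, against 2.93% to 9.70% at base 2 and 0.917% to 5.90% at base 3. For Lys-TTT it was 83.2% to 94.4%, with 1.42% to 5.17% at base 2 and 2.60% to 11.6% at base 3. The G29 copy started at base 2 less often than the A29 copy in all 8 libraries, at 0.457% to 1.71% against 3.32% to 10.1%. These starts are given as values without a test.

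Between 15.4% and 28.2% of Lys-CTT fragments and between 14.6% and 26.2% of Lys-TTT fragments carried 1 substitution, and its place within the fragment differed between libraries. The substituted base was the last base of the fragment in 15.6% and 5.73% of Lys-CTT fragments in Dnmt2-/- HFD sperm, 16.8% and 17.2% in Dnmt2+/+ HFD, 5.62% and 2.88% in Dnmt2-/- ND, and 3.71% and 9.72% in Dnmt2+/+ ND. For Lys-TTT the shares were 16.6% and 4.74% in Dnmt2-/- HFD, 15.3% and 17.1% in Dnmt2+/+ HFD, 5.71% and 3.54% in Dnmt2-/- ND, and 3.04% and 8.35% in Dnmt2+/+ ND. Set B stood above every other library for both tRNAs (15.3% to 17.2% against 2.88% to 9.72%). The Dnmt2-/- HFD library outside set B lay within the range of the ND libraries. At a last base, a changed base and a base added after a shorter fragment give the same read and cannot be told apart.

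The last-base changes were mainly pyrimidine exchanges. For Lys-CTT, T33C made up 36.3% of them in the mean over libraries, C34T 16.1%, T33A 12.2% and C32T 10.7%. For Lys-TTT, T33C made up 33.6%, C25T 17.7%, T33A 11.4% and G24A 10.5%. Here the first letter is the tRNA base, the number counts from the tRNA's first base and the last letter is the base read. Last-base changes were not limited to lysine tRNAs: over the 8 libraries they were found in 4.29% to 24.8% of glycine, 3.60% to 20.9% of glutamate, 14.7% to 38.95% of valine, 5.47% to 18.1% of histidine and 1.72% to 15.8% of aspartate 5' fragments.

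Counted over all reads that cover a base, the most often substituted bases of Lys-CTT were base 34 (mostly C34T, 8.78% ± 5.16), base 35 (mostly T35C, 8.21% ± 5.27) and base 41 (mostly T41C, 8.20% ± 8.18, on 43 substituted reads of 463). For Lys-TTT they were base 36 (mostly T36G, 16.8% ± 18.3, on 18 of 109 reads), base 33 (mostly T33C, 10.8% ± 6.50) and base 34 (mostly T34C, 9.20% ± 5.91). The values are means ± SD over 8 libraries, and the 2 values on few reads varied as widely as their size. Base 41 is also a base where the Lys-CTT copies differ, and T41C gives the base of the G29 copy. The mixed reads with A at base 29 and C at base 41 are counted there. When the last base of each read was set aside, a choice made after these values had been seen, base 34 came first and base 6 second in both tRNAs, followed by base 10 in Lys-CTT and base 29 in Lys-TTT. Base 6, in the acceptor stem, was read as another base in 1.44% to 2.32% of Lys-CTT reads and 1.36% to 3.37% of Lys-TTT reads, mostly as G6A. Base 10, which carries a methylated guanosine in many eukaryotic tRNAs, was substituted in 1.05% to 1.94% of Lys-CTT reads and 0.824% to 2.16% of Lys-TTT reads, mostly as G10A. Base 34 of Lys-CTT, inside the few reads that ran beyond it, was substituted in 0.185% to 11.5% of reads, mostly as C34G, with the 3 libraries of set A at 3.57%, 11.5% and 4.74% and the others at 0.185% to 2.35%. The same base of Lys-TTT was substituted in 0% to 22.9% of reads, mostly as T34G, on 49 of 467 reads. Base 29 of Lys-TTT was substituted in 2.20% to 3.80% of reads in set A and in 0.487% to 0.825% elsewhere, most often as A29C, on 131 of 14759 reads.

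**Figure D3:**
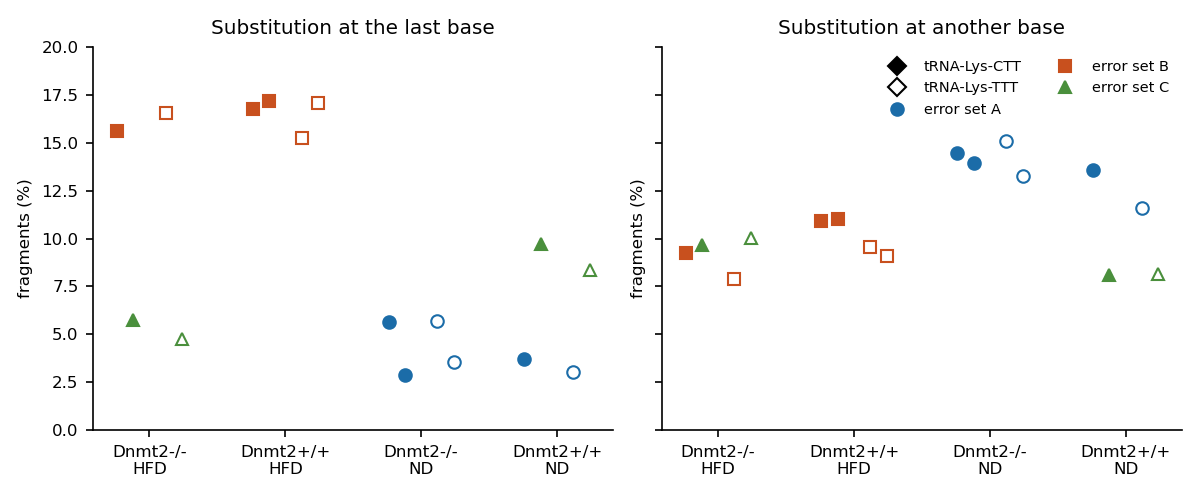
Share of fragments (vertical axes, percent) with their 1 substitution at the last base or at another base, by group (horizontal axis), with a point per library, filled for tRNA-Lys-CTT, open for tRNA-Lys-TTT and shaped by error set. Set B lies at 15.3% to 17.2% for the last base, above all other libraries, while set A is highest at other bases (11.6% to 15.1% against 7.88% to 11.04%).

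Neither lysine tRNA passed the test for diet in either genotype. The first 18 bases of a read defined a family of reads, both lysine tRNAs stood as families of their own, and all 30277 families were fitted together with edgeR's quasi-likelihood test. In Dnmt2-/- sperm, the log2 difference of HFD against ND was 0.71 ± 0.71 (SE) for Lys-CTT (adjusted p = 0.962) and 1.80 ± 0.93 for Lys-TTT (adjusted p = 0.830). In Dnmt2+/+ sperm it was 0.40 ± 0.71 for Lys-CTT (adjusted p = 0.949) and 0.36 ± 0.90 for Lys-TTT (adjusted p = 0.970). For Lys-TTT in Dnmt2-/- sperm, both HFD libraries (441.1 and 212.4 CPM) lay above both ND libraries (119.5 and 68.67 CPM), and the 95% interval ran from -0.22 to 3.81. With TMM factors or DESeq2 in place of total reads, the Lys-CTT values kept their sign but were smaller, at 0.18 and 0.15 in Dnmt2-/- and 0.13 and 0.07 in Dnmt2+/+ sperm. The Lys-TTT values were then 1.30 and 1.28 in Dnmt2-/- and 0.20 and 0.14 in Dnmt2+/+ sperm. In Dnmt2+/+ sperm both HFD libraries lay between the ND libraries. In the same fit 0% of all families were called for diet in Dnmt2-/- and 0% in Dnmt2+/+ sperm, with 1756 and 2911 families at an unadjusted p under 0.05, and DESeq2 called 77 and 806. The median log2 difference over all families was 0.47 in Dnmt2-/- and 0.29 in Dnmt2+/+ sperm; the lysine values stand beside these shifts.

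With error set as a term, the diet values changed sign. They were -2.33 for Lys-CTT and -2.79 for Lys-TTT in Dnmt2-/- sperm, and -1.77 and -1.60 in Dnmt2+/+ sperm, at adjusted p = 1 or 0.9999 with edgeR. The unadjusted edgeR p was 0.0182 and 0.00464 in Dnmt2-/- and 0.0490 and 0.0490 in Dnmt2+/+ sperm. Of the 30277 families, 1239 in Dnmt2-/- and 648 in Dnmt2+/+ sperm had an unadjusted p under 0.05 in that fit. Their direction then rests on the libraries of set C, the only set that holds both diets, with 1 library of each diet and of different genotypes. Without Dnmt2+/+ ND replicate 2, the Lys-TTT difference in Dnmt2+/+ sperm was 3.42 (adjusted p = 0.122, edgeR), and without Dnmt2+/+ ND replicate 1 it was -0.55, so either ND library alone decides this value. Without Dnmt2-/- HFD replicate 1, the Lys-CTT difference in Dnmt2-/- sperm was -0.20.

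Genotype gave no call either. On HFD, the log2 difference of Dnmt2-/- against Dnmt2+/+ sperm was -0.25 ± 0.71 for Lys-CTT (adjusted p = 0.991) and -0.61 ± 0.91 for Lys-TTT (adjusted p = 0.987). On ND it was -0.57 ± 0.71 for Lys-CTT and -2.04 ± 0.94 for Lys-TTT (edgeR, adjusted p = 1 for both), and the unadjusted p of Lys-TTT was 0.0488. Again 0% of families were called on HFD and 0% on ND, with 2100 and 764 families at an unadjusted p under 0.05 and 432 and 8 called by DESeq2. The median over all families was -0.32 on both diets. The ND value of Lys-TTT rests on 1 library: without Dnmt2+/+ ND replicate 2 it was 1.01, and for Lys-CTT 0.86. With TMM factors the genotype value of Lys-CTT turned positive, at 0.24 on HFD and 0.19 on ND, and that of Lys-TTT was -0.14 on HFD and -1.23 on ND.

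Within error sets, the mean level of Lys-CTT was higher in Dnmt2-/- than in Dnmt2+/+ sperm in both sets that allow the comparison. The means of Lys-TTT and of the G29 copy changed order between these sets. These are values of 3 libraries per set, without a test. In set A, all on ND, Lys-CTT averaged 1272 CPM in 2 Dnmt2-/- libraries and 701.4 CPM in 1 Dnmt2+/+ library, a ratio of 1.81, and Lys-TTT 94.1 and 46.7 CPM, a ratio of 2.01. The ratio there was 1.73 for the A29 copy and 3.02 for the G29 copy of Lys-CTT. The higher Lys-CTT mean of set A rests on Dnmt2-/- ND replicate 1, at 1849 CPM. Dnmt2-/- ND replicate 2, at 695.5 CPM, lay just below the Dnmt2+/+ library. The A29 copy had the same order, at 1599 and 608.6 CPM against 638.4 CPM. In set B, all on HFD, Lys-CTT stood at 3063 CPM in 1 Dnmt2-/- library and averaged 2487 CPM in 2 Dnmt2+/+ libraries (ratio 1.23), while the ratio was 0.885 for Lys-TTT, 1.44 for the A29 copy and 0.472 for the G29 copy of Lys-CTT. Set C holds 1 library of each genotype on different diets and gives no genotype value. The difference of the diet response between genotypes was 0.32 ± 1.002 for Lys-CTT and 1.43 ± 1.28 for Lys-TTT (log2, edgeR, adjusted p = 0.9999 for both); 0% of families were called, 2022 had an unadjusted p under 0.05, DESeq2 called 45, and the median over all families was 0.11.

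None of 14 comparisons of 4 libraries against 4 passed an adjusted p of 0.05 in two-sided exact permutation tests, whose smallest possible unadjusted p is 0.0286. A single comparison at that p would adjust to 0.4 over the 14. With 8 of them at that p, the adjusted p would come to 0.05 and not under it, so more than 8 would be needed. These tests could thus not call 1 comparison alone. The lowest unadjusted p was 0.114. It belonged to the share of Lys-TTT fragments with 1 substitution, which was 22.6% ± 5.22 on HFD and 17.2% ± 2.61 on ND (SD, n = 4 each; exact permutation, adjusted p = 0.489). For Lys-CTT the same share was 24.0% ± 5.95 on HFD and 17.99% ± 1.44 on ND (exact permutation p = 0.143, adjusted p = 0.489). The share of lysine fragments that came from Lys-TTT was 15.5% ± 1.98 on HFD and 10.1% ± 6.17 on ND (n = 4 each; exact permutation p = 0.143, adjusted p = 0.489). By genotype it was 10.9% ± 4.34 in Dnmt2-/- and 14.7% ± 5.76 in Dnmt2+/+ sperm (n = 4 each; exact permutation p = 0.257, adjusted p = 0.489).

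Levels and end positions gave no call either. Lys-CTT stood at 2287 ± 860.2 CPM on HFD and 1581 ± 1136 CPM on ND (n = 4 each; exact permutation p = 0.314, adjusted p = 0.489), and at 1680 ± 1038 CPM in Dnmt2-/- and 2189 ± 1055 CPM in Dnmt2+/+ sperm (n = 4 each; exact permutation p = 0.486, adjusted p = 0.618). Lys-TTT stood at 412.6 ± 142.4 CPM on HFD and 241.0 ± 326.8 CPM on ND (n = 4 each; exact permutation p = 0.400, adjusted p = 0.560), and at 210.4 ± 164.9 CPM in Dnmt2-/- and 443.2 ± 288.8 CPM in Dnmt2+/+ sperm (n = 4 each; exact permutation p = 0.257, adjusted p = 0.489). Single libraries moved these differences by more than 1.5 times. HFD minus ND was 705.8 CPM for Lys-CTT and 171.6 CPM for Lys-TTT with all libraries, 1205 and 334.3 CPM without Dnmt2+/+ ND replicate 2, 412.6 and 106.8 CPM without Dnmt2+/+ ND replicate 1, and 410.6 and 114.2 CPM without Dnmt2-/- ND replicate 2. For Lys-CTT it was also 1098 CPM without Dnmt2-/- HFD replicate 2 and 447.3 CPM without Dnmt2-/- HFD replicate 1. Dnmt2-/- minus Dnmt2+/+ was -509.1 CPM for Lys-CTT and ranged from -1005 CPM without Dnmt2+/+ ND replicate 1 to -181.0 CPM without Dnmt2-/- ND replicate 2; for Lys-TTT it was -232.7 CPM and ranged from -364.9 CPM without Dnmt2+/+ ND replicate 1 to -137.4 CPM without Dnmt2+/+ ND replicate 2. The share of Lys-CTT fragments that ended in the anticodon loop, bases 32 to 38, was 87.1% ± 6.20 on HFD and 91.2% ± 2.32 on ND, and 86.8% ± 5.98 in Dnmt2-/- and 91.5% ± 2.20 in Dnmt2+/+ sperm (n = 4 each; exact permutation p = 0.286 and 0.143, adjusted p = 0.489 for both). For Lys-TTT it was 47.2% ± 7.64 on HFD and 49.5% ± 15.1 on ND, and 48.5% ± 15.6 in Dnmt2-/- and 48.2% ± 6.96 in Dnmt2+/+ sperm (n = 4 each; exact permutation p = 0.829 and 1, adjusted p = 0.892 and 1). The substitution shares by genotype were 19.3% ± 4.19 in Dnmt2-/- and 22.7% ± 6.02 in Dnmt2+/+ sperm for Lys-CTT, and 19.2% ± 4.29 and 20.5% ± 5.81 for Lys-TTT in the same order (n = 4 each; exact permutation p = 0.286 and 0.714, adjusted p = 0.489 and 0.833).

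The other tRNAs set the scale. By median CPM over the libraries, Lys-CTT (2029 CPM) was the 7th and Lys-TTT (326.8 CPM) the 8th of the 14 anticodon families. A family was listed only where reads of at least 36 nt showed its anticodon. Any tRNA whose fragments all end earlier is therefore not among the 14. The 5' fragments of glutamate tRNAs held 282142 to 566997 CPM and those of glycine tRNAs 132456 to 283298 CPM. Of the other 3 amino acids in the list of tRNAs compared here, valine held 3119 to 17921 CPM, histidine 1274 to 4381 CPM and aspartate 79.7 to 264 CPM; Cys-GCA, outside that list, had a higher median than His-GTG (2117 against 2046 CPM). The highest library exceeded the lowest 15.6-fold for Lys-TTT, 5.75-fold for valine, 3.44-fold for histidine, 3.31-fold for aspartate, 2.14-fold for glycine and 2.01-fold for glutamate. The value of an amino acid sums all its anticodon families that could be read, whereas Lys-TTT is a single family. Ranges of other single families, such as Cys-GCA and Glu-TTC, were not compared. Among the 11 other families of at least 50 CPM, those most like Lys-CTT in log2 CPM over the 8 libraries were Lys-TTT (Pearson r = 0.91), Glu-TTC (0.89) and Gly-CCC (0.87). Those most like Lys-TTT were Cys-GCA (r = 0.97), Glu-TTC (0.97) and Lys-CTT (0.91). Val-GAC, Cys-GCA, Gln-CTG and Asp-GTC were nearly as like Lys-CTT (0.85, 0.84, 0.84 and 0.81). Glu-CTC, the family with the highest median (391955 CPM), stood at -0.73 with Lys-CTT and -0.90 with Lys-TTT. CPM values of a library share its total, and the part of this in the correlations was not tested. All points share library, depth and error set, so these correlations are a description.

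Lysine fragments were highest in the libraries that held the most epithelial microRNA. The summed level of the 5 listed epithelial microRNAs (miR-200a-3p, miR-200b-3p, miR-200c-3p, miR-141-3p and miR-429-3p) was 3035 and 608.1 CPM in Dnmt2-/- HFD sperm, 3987 and 3481 CPM in Dnmt2+/+ HFD, 412.0 and 190.5 CPM in Dnmt2-/- ND, and 303.8 and 1914 CPM in Dnmt2+/+ ND. The 4 libraries highest in this sum were the 4 highest in Lys-CTT and in Lys-TTT fragments. This was not particular to lysine: the same 4 were highest in valine 5' fragments, at 8370 to 17921 CPM against 3119 to 6707 CPM elsewhere. For glycine, glutamate, histidine and aspartate 5' fragments they were not the 4 highest. Of the 5 epithelial microRNAs, 4 stood above the level of 3 reads in all 8 libraries, and miR-141-3p did so in 7, with 0.152 CPM in Dnmt2-/- ND replicate 2. The microRNA of striated muscle that could be read, miR-206-3p, reached 64.7 to 75.3 CPM in set B, whose 3 libraries are all HFD, against 0.0759 to 0.676 CPM elsewhere. The 4 blood-cell microRNAs that could be read summed to 2.79 to 86.2 CPM, with miR-142a-3p at 0 in the 3 libraries of set A. In every library most of this sum was miR-146a-5p (2.05 to 81.7 CPM). The others, miR-142a-3p, miR-223-3p and miR-451a, each reached at most 2.62 CPM. The 3 germ-cell microRNAs that could be read, which mark the labelled cells, summed to 291.8 and 762.6 CPM in Dnmt2-/- HFD sperm, 623.9 and 400.3 CPM in Dnmt2+/+ HFD, 324.2 and 1075 CPM in Dnmt2-/- ND, and 1492 and 598.0 CPM in Dnmt2+/+ ND. The 2 libraries highest in this sum, Dnmt2+/+ ND replicate 1 and Dnmt2-/- ND replicate 2, were the 2 lowest in Lys-CTT and in Lys-TTT. Most of the sum was miR-881-3p (270.0 to 1398 CPM), while miR-449a-5p stood at 2.62 to 4.76 CPM in the 4 libraries highest in lysine fragments and at 0 to 0.376 CPM in the other 4. The part of other cells in the lysine levels was not tested. In such bulk RNA, fewer cells of a type and less RNA per cell cannot be told apart.

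**Figure D4:**
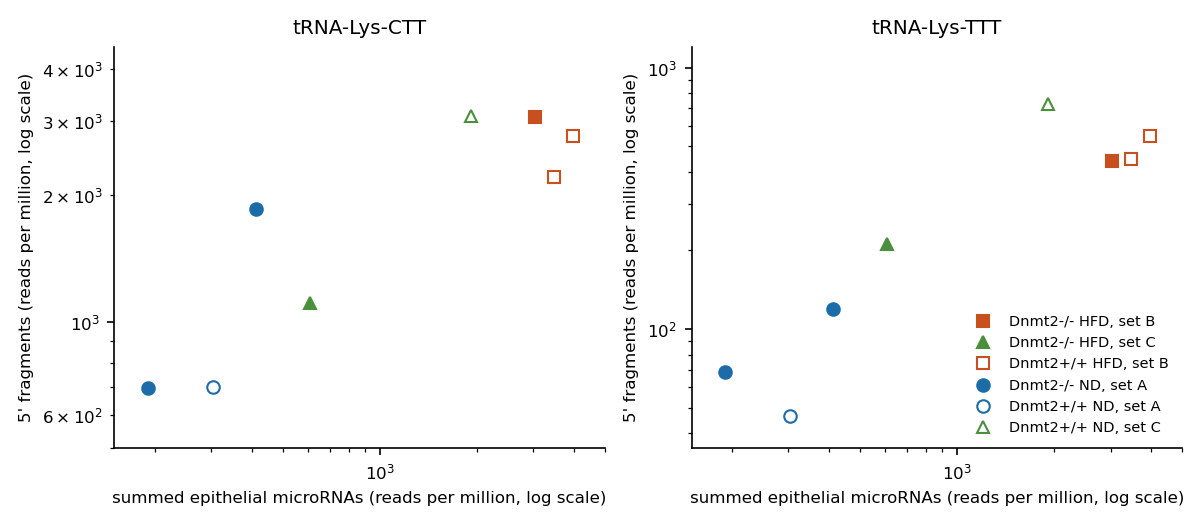
Level of tRNA-Lys-CTT and tRNA-Lys-TTT 5' fragments (vertical axes, CPM, log scale) against the summed level of 5 epithelial microRNAs (horizontal axes, CPM, log scale), with a point per library, shaped by error set, filled for Dnmt2-/- and open for Dnmt2+/+. The 3 libraries of set B and Dnmt2+/+ ND replicate 2 stand apart at the upper right, with at least 1914 CPM of these microRNAs.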

How the data were processed

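Per the labels' protocols, Trizol extracts of sperm went into TruSeq small RNA libraries. The deposited values are counts: each sperm file lists distinct read sequences of 18 to 44 nt with their number of reads. Settings for trimming and filtering were not given in the sources used here, and the submitters' processing notes name mm10 and GRCm38. The 3T3 libraries were not used.

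No tRNA sequence was given, so the references were built from the reads. The planned rule, reads of 43 or 44 nt whose anticodon stem pairs, found 5 reads in 4 sequences for Lys-CTT and 0 for Lys-TTT. After this had been seen, Lys-CTT was built from 41-nt reads with that stem (153 and 147 reads for the 2 copies), and Lys-TTT from its commonest 36-nt read (71 reads). Reads that matched 2 tRNAs equally well (87 in all) were left out. A microRNA read began with the first 20 bases of its RefSeq arm and was at most 26 nt long.

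CPM is a count per 1000000 reads of the library. Families of reads with a count of at least 10 over the 8 libraries were filtered by filterByExpr and tested with edgeR 4.0.16 (R 4.3.3). One fit held all 4 groups, the library size was the total of reads, and the call was a p under 0.05 after Benjamini-Hochberg adjustment. The fit was also run on simulated counts whose spread between libraries was set far below that of the data. That run does not show what the fit could detect here. Shares and CPM were tested with scipy 1.17.1 by exact permutation, adjusted over 14 tests. DESeq2 1.42.0, other scalings, filters, read rules, a replicate block, error set as a term and leaving out each library were tried. Figures were drawn with matplotlib 3.10.9.

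The lysine tRNAs covered 10049 to 51972 reads per library (889 to 9952 for Lys-TTT). The 95% Wilson interval of a share was at most ± 1.02 percentage points for Lys-CTT and ± 3.29 for Lys-TTT or the G29 copy; such intervals cover counting error only, because reads of 1 molecule copied by PCR cannot be recognised here. Replicates of a group differed by more than counting noise (mean chi-square per family of 36.1 to 447). The deviations of same-numbered libraries correlated at -0.28 to 0.16, which showed no pairing by number. With 2 libraries per group, this check cannot exclude a pairing or a batch that follows the replicate number. The text names both tRNAs, their 5 most abundant sequences, every end base of at least 5% in the mean, their 3 most substituted bases and the 3 most similar families. The members, lists and comparisons were chosen with earlier results of these data known.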

Additional observations from a re-analysis of the deposited data

Results flagged for a closer look

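Lys-TTT fragments in Dnmt2+/+ ND replicate 2 stood at 729.1 CPM, far above the other 3 ND libraries (119.5 and 68.67 CPM in Dnmt2-/- ND sperm and 46.72 CPM in Dnmt2+/+ ND replicate 1). The share of Lys-TTT fragments that ended in the anticodon loop was 71.6% in Dnmt2-/- ND replicate 1, against 39.1% to 43.5% in the other 3 Dnmt2-/- libraries. The share of Lys-TTT fragments with 1 substitution was 14.8% in Dnmt2-/- HFD replicate 2, against 24.4% to 26.2% in the other 3 HFD libraries. In each case a single library lay apart from the other 3 by more than Dixon's 95% critical value. Chance flags about 1 in 20 groups, and 28 groupings of 4 libraries were looked at, over 7 measures by diet and by genotype. Dnmt2-/- HFD replicate 2 and Dnmt2+/+ ND replicate 2 are the 2 libraries of error set C.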

How the results depend on the processing

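No lysine value passed an adjusted p of 0.05 in any edgeR or DESeq2 fit run; the lowest was 0.122, with Dnmt2+/+ ND replicate 2 left out. The permutation comparisons with a library left out, 3 against 4, cannot go below p = 0.0571 and so could not pass. Of 128 alternative values of the fits 105 kept their sign and 23 did not, and of 158 alternative values of the permutation comparisons 148 kept it and 10 did not. Values below are log2 differences unless they are shares. With error set as a term, HFD against ND was -2.33 (Lys-CTT) and -2.79 (Lys-TTT) in Dnmt2-/- and -1.77 and -1.60 in Dnmt2+/+, Dnmt2-/- against Dnmt2+/+ was 0.86 and 1.01 on ND and 0.30 (Lys-CTT) on HFD, and the interaction was -0.56 and -1.19. Dnmt2-/- against Dnmt2+/+ for Lys-CTT was 0.19 on ND and 0.24 on HFD with TMM factors, and 0.18 and 0.26 with DESeq2. Among reads of 28 nt or longer, the anticodon-loop share of Lys-TTT differed by 0.302 percentage points between HFD and ND and by -0.932 between Dnmt2-/- and Dnmt2+/+. The cause of these changes was not tested.

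Leaving out 1 library at a time gave these ranges. HFD against ND in Dnmt2-/- was -0.20 to 1.59 (Lys-CTT), and in Dnmt2+/+ -0.31 to 1.83 (Lys-CTT) and -0.55 to 3.42 (Lys-TTT). Dnmt2-/- against Dnmt2+/+ on ND was -1.44 to 0.86 (Lys-CTT) and -2.95 to 1.01 (Lys-TTT), and on HFD -1.16 to 0.30 (Lys-CTT). The interaction was -1.11 to 1.19 (Lys-CTT) and -1.62 to 2.35 (Lys-TTT). The anticodon-loop share of Lys-TTT differed by -5.61 to 5.05 percentage points for diet and -7.50 to 3.34 for genotype, and its substitution share by -3.26 to 0.580 for genotype. Where a group kept 1 library, that library was assumed to vary like the others.

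With the replicate number as a block, HFD against ND was 0.71 (Lys-CTT) and 1.80 (Lys-TTT) in Dnmt2-/- and 0.27 and 0.44 in Dnmt2+/+, and no call of a lysine tRNA changed; 5 families were called for diet in Dnmt2+/+ and 1 in Dnmt2-/-. Over all families, the main count of 0 became 829, 192, 21, 672 and 670 without the filter beyond 10 reads (diet in Dnmt2+/+, diet in Dnmt2-/-, genotype on ND, genotype on HFD, interaction), 806, 77, 8, 432 and 45 with DESeq2, and up to 1645 with a library left out. Depth limits the G29 copy and Lys-TTT more than the A29 copy, with 866 and 889 reads in their smallest libraries against 8003.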
